A study of Homo sapiens with 8 samples.

Results

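The genes described here are 6 interferon regulatory factors, IRF2, IRF3, IRF5, IRF7, IRF8 and IRF9, together with BATF2 and BATF3, in A549 cells, a human lung adenocarcinoma line. The 8 genes are the rows of the deposited count table whose Ensembl identifiers map to these symbols, out of 60664 rows. All 8 had counts in at least 1 library and entered the set of 15066 genes tested, IRF9 only through its counts in the IFN-γ libraries.

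RNA was sequenced in 8 libraries, with 2 libraries in each of 4 groups: untreated cells, cells given AX-0085, cells given IFN-γ, and cells given IFN-γ with AX-0085. AX-0085 is a kinase inhibitor under study for its effect on the IFN-γ response. The protocol states 20 ng of IFN-γ (20 ng/mL in the study's methods) for 24 h, then AX-0085 at 0.5 μM, and a harvest 24 h after that, so the inhibitor was added to cells that had already met IFN-γ. All groups are 1 cell line, and the labels do not say that the libraries of a group came from separate cultures, so p-values measure the spread between these libraries, which may be technical.

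Total counts lay between 20672828 and 29978251 per library, and a gene with 3 counts had 0.0959 to 0.158 CPM, a limit for counting error only. CPM are the counts of a gene per 1e+06 of the library's total after scaling with TMM factors. All 5 epithelial markers (KRT8, KRT18, KRT19, EPCAM and CDH1) were detected, and of 7 leukocyte markers 3 were at 0 in every library and 6 had at most 10 counts in any. The summed level of the epithelial markers was 6425 to 6881 CPM when untreated, 2575 to 2882 under IFN-γ, 3607 to 3661 under the combined treatment and 3224 to 3397 under AX-0085 alone, and all 5 fell with IFN-γ. The summed level of the leukocyte markers was 2.44 to 2.52 CPM when untreated, 1.64 to 1.77 under IFN-γ, 1.18 to 1.53 under the combined treatment and 1.51 to 1.84 under AX-0085 alone. The summed level of 4 fibroblast markers was 9.03 to 10.8 CPM when untreated, 3.06 to 4.60 under IFN-γ, 7.03 to 8.45 under the combined treatment and 9.12 to 9.63 under AX-0085 alone. Of these 4, 1 was at 0 in every library and 3 had at most 10 counts in any. The sum was thus nearly all COL1A1, at a mean of 9.69 CPM when untreated and 3.59 under IFN-γ. The part of these shifts in the results below was not tested. All libraries are of 1 cell line. In bulk RNA, fewer cells with a marker and less of its RNA per cell cannot be told apart.

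Interferon regulatory factors are transcription factors that bind repeats of a GAAA core. IRF3, IRF5 and IRF7 are switched on by phosphorylation when a cell senses pathogen nucleic acids, IRF9 carries STAT proteins to DNA as the complex ISGF3, IRF8 is best known from myeloid and B cells, and IRF2 competes with IRF1 at shared sites. BATF2 and BATF3 are basic leucine zipper (bZIP) proteins that pair with JUN family proteins and can bind beside IRF4 or IRF8. IFN-γ acts through its receptor and the kinases JAK1 and JAK2, which phosphorylate STAT proteins. The question here is which of these genes followed IFN-γ, which followed AX-0085, and whether the IFN-γ response was still there once AX-0085 followed.

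Stretches of 300 bases run from 250 before to 50 after an annotated start site. They are shown for the genes with such a window among the RefSeq promoters of GRCh38.p14. The reason is that IRF8, IRF9 and BATF2 rose over 2-fold with IFN-γ while IRF5 stayed under 2-fold. Capitals mark matches, on either strand, to a STAT site (TTCNNNGAA) or to a single IRF core (AANNGAAA). GAAANNGAAA, the tandem IRF site, which contains the single core, and TGANTCA, the AP-1 site that bZIP pairs bind, were searched too and matched none of these windows. The IRF9 window is chr14:24161015-24161314 (+), the first of 2 for IRF8 is chr16:85902580-85902879 (+), the one for BATF2 is chr11:64990228-64990527 (-), and the third of 4 for IRF5 is chr7:128940420-128940719 (+).
IRF9: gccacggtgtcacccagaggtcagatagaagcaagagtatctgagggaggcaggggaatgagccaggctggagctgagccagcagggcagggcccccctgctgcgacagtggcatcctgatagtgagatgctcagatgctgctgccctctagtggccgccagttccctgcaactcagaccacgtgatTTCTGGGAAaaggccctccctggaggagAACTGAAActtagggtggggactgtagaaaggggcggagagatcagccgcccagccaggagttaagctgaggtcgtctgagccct
IRF8: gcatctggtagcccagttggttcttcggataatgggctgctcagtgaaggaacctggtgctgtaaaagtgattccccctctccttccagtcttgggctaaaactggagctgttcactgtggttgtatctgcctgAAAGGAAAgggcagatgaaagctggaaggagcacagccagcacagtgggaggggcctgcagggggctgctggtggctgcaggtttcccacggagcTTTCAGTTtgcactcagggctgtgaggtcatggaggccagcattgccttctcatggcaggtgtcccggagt
BATF2: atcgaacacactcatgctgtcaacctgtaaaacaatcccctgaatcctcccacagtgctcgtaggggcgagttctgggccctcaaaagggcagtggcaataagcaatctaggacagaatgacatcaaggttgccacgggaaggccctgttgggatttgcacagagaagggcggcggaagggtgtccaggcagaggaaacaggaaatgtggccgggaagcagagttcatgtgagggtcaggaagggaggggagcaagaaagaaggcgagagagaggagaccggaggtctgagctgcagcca
IRF5: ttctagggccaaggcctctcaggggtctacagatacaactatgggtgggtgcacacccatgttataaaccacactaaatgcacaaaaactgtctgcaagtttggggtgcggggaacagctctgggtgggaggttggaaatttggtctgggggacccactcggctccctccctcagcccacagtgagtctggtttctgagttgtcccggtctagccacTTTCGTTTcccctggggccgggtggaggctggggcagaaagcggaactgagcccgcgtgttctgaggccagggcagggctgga
The IRF9 window held a STAT site 63 bases and an IRF core 35 bases before the start. The IRF8 window held 2 IRF cores, the IRF5 window held 1, and the BATF2 window matched none of the 4 motifs. The IRF5 window was shown because it was the only one of the 4 for that gene with a match, and the second IRF8 window, which overlaps the first, held 1 core. Among all 35116 windows of this length, 7.66% held the STAT site, 22.8% the single IRF core, 3.57% the tandem site and 7.71% the AP-1 site. The IRF8, BATF2 and IRF5 windows lie inside the span of the gene in GENCODE 44. The BATF2 gene, on the minus strand, starts at 64997018, and the IRF8 gene at 85899116, both outside the windows. The bases before the outermost starts of these genes were thus not searched. These matches describe letters only and were not tested against the RNA levels.

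The genes that rose with IFN-γ were BATF2, IRF8, IRF9, IRF7 and BATF3, by 75.8-fold for BATF2 down to 2.92-fold for BATF3. A call here and below required an adjusted p under 0.05 in edgeR's quasi-likelihood test, with Benjamini-Hochberg adjustment over all genes, and a fold change over 2. Of all genes tested, 10.3% were called higher and 17.2% lower with IFN-γ, against 5 and 0 of these 8, or 4 and 0 of the 7 without IRF9. The median log2 fold change was 1.93 over the 8 genes, 1.54 over the 7 and -0.06 over all genes. The values of IRF2, IRF3 and IRF5 stayed under 2-fold.

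**Figure D1:**
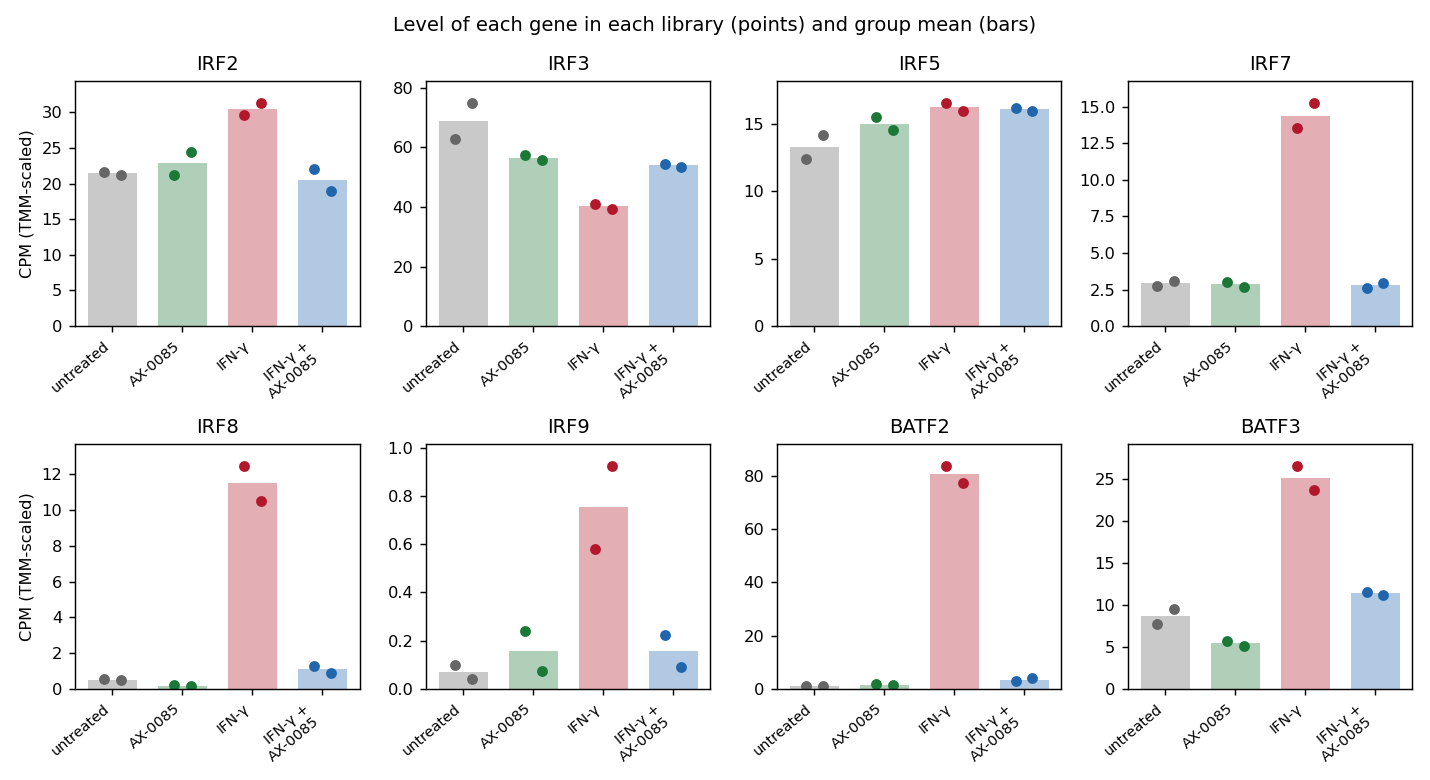
Level of each gene in CPM (vertical axis, linear, TMM-scaled) in the 4 groups. Points are single libraries and bars the mean of 2. IRF7, IRF8, IRF9, BATF2 and BATF3 are highest in both IFN-γ libraries, IRF3 is lowest there, and IRF5 differs little between groups.

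BATF2, a partner of JUN that is induced in macrophages by interferons, showed the widest range of the 8 genes. It stood at 1.09 and 1.02 CPM when untreated, 83.8 and 77.5 under IFN-γ, 2.85 and 4.09 under the combined treatment, and 1.91 and 1.32 under AX-0085 alone. Each group lay above the one before it in the order untreated, AX-0085, both, IFN-γ, with no overlap between libraries. The log2 change with IFN-γ was 6.24 (SE 0.16, adjusted p 3.112e-12). Addition of AX-0085 to IFN-γ lowered the gene by 23.7-fold (log2 change -4.57, SE 0.13, adjusted p 1.476e-11). What remained was 3.19-fold above untreated cells (log2 change 1.67, SE 0.23, adjusted p 3.961e-05).

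BATF2 also differed between both treatments and AX-0085 alone, by 1.07 on the log2 scale (95% confidence interval 0.61 to 1.54, adjusted p 0.001918). This call rests on small counts, 48 and 35 against 89 and 91, and the change fell below 2-fold without AX-0085 replicate 2 (log2 change 0.83) or without replicate 2 of both treatments (0.82). AX-0085 alone gave a log2 change of 0.60 that missed the threshold (adjusted p 0.07805). The BATF2 gene lies at chr11:64987945-64997018 on the minus strand in GENCODE 44, and no other gene shares its exon bases.

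BATF3, a bZIP factor known from dendritic cells, was already measurable in untreated cells. It stood at 7.71 and 9.57 CPM when untreated, 26.6 and 23.7 under IFN-γ, 11.6 and 11.2 under the combined treatment, and 5.66 and 5.16 under AX-0085 alone. The AX-0085 libraries were the lowest, and no 2 groups overlapped. IFN-γ raised BATF3 by 1.54 on the log2 scale (SE 0.11, adjusted p 5.361e-08), and AX-0085 lowered it again by 2.196-fold (log2 change -1.14, SE 0.11, adjusted p 9.706e-07). AX-0085 alone gave a log2 change of -0.67 (SE 0.13, adjusted p 0.0008471), under the 2-fold limit. Measured from AX-0085 alone, the IFN-γ response of BATF3 was 1.08 (95% confidence interval 0.80 to 1.36, adjusted p 4.315e-05).

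IRF8 was low outside the IFN-γ libraries and close to the detection limit under AX-0085 alone. Its counts were 16 and 12 when untreated, 236 and 262 under IFN-γ, 40 and 20 under the combined treatment, and 5 and 4 under AX-0085 alone. In the same order, this was 0.529 and 0.489, then 12.5 and 10.5, then 1.28 and 0.899, then 0.199 and 0.151 CPM. The groups did not overlap, with AX-0085 the lowest and IFN-γ far above the rest. IRF8 rose 22.2-fold with IFN-γ (log2 change 4.47, SE 0.21, adjusted p 8.954e-10) and fell 10.2-fold once AX-0085 followed (log2 change -3.35, SE 0.19, adjusted p 4.941e-09).

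AX-0085 alone lowered IRF8 2.88-fold (log2 change -1.53, SE 0.48, adjusted p 0.0159). No other of the 8 genes met both limits of a call under AX-0085 alone, where 6.41% of all genes tested were called higher and 5.62% lower. The call was lost without untreated replicate 1 (log2 change -1.45, adjusted p 0.0701) and without AX-0085 replicate 2 (-1.34, adjusted p 0.09454). With both treatments IRF8 was 2.17-fold above untreated cells (adjusted p 0.007734), a call lost without replicate 1 of both treatments (log2 change 0.85, adjusted p 0.1048). Against AX-0085 alone the difference was 2.65 on the log2 scale (95% confidence interval 1.77 to 3.52, adjusted p 0.0002885).

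Of 4 partners of IRF8 known from blood cells, SPI1, SPIB and IKZF1 had at most 3 counts in any library and were not tested. ETV6, the one partner tested, was detected in every library and had a log2 change of 0.64 with IFN-γ, under the 2-fold limit. IRF8 lies at chr16:85899116-85922606 on the plus strand and shares no exon bases with another gene.

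IRF7, which drives the amplifying phase of type I interferon production, rose with IFN-γ and showed no measurable remainder of that rise with AX-0085. It stood at 2.75 and 3.10 CPM when untreated, 13.5 and 15.2 under IFN-γ, 2.62 and 2.97 under the combined treatment, and 3.03 and 2.67 under AX-0085 alone. The libraries without IFN-γ and those with both treatments overlapped one another, and only the IFN-γ pair stood apart. The IFN-γ change was 4.95-fold (log2 change 2.31, SE 0.14, adjusted p 6.954e-09), and addition of AX-0085 reduced the level 5.19-fold (log2 change -2.38, SE 0.14, adjusted p 7.665e-09). Both treatments against AX-0085 alone gave -0.04 on the log2 scale (95% confidence interval -0.41 to 0.33, adjusted p 0.889). Both treatments against untreated cells gave -0.07 (95% confidence interval -0.43 to 0.29).

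IRF9 was counted at very low depth. Its counts were 3 and 1 when untreated, 11 and 23 under IFN-γ, 7 and 2 under the combined treatment, and 6 and 2 under AX-0085 alone. Only the IFN-γ pair lay above all other libraries, while the other 3 groups overlapped. Since IRF9 passed the expression filter only through that pair, the filter favoured a rise with IFN-γ and a fall from it. The ratio of IFN-γ to untreated cells was 10.6 (95% counting interval 3.79 to 41.2, adjusted p 0.0004672 in edgeR's quasi-likelihood test), and that of both treatments to IFN-γ was 0.217 (0.0914 to 0.461, adjusted p 0.003327). The log2 change with IFN-γ was 3.32 with all libraries, 4.12 without untreated replicate 1 and 2.90 without untreated replicate 2. The second comparison gave -2.17 with all libraries and -3.03 without replicate 1 of both treatments, and its call was lost without IFN-γ replicate 2 (log2 change -1.77, adjusted p 0.05566).

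IRF9 lies at chr14:24161234-24168043 on the plus strand, and 93.1% of the 1626 exon bases of its canonical transcript are also exon bases of another gene in GENCODE 44, on all 9 exons. The largest share belongs to ENSG00000259529, a protein-coding gene on the same strand, and a further part to a long non-coding RNA on the opposite strand. Reads in bases shared on the same strand cannot be given to 1 gene alone, and how the counting treated them is not given in the sources used here. ENSG00000259529 itself had 29 and 10 counts when untreated, 9 and 5 under IFN-γ, 11 and 7 under the combined treatment, and 6 and 6 under AX-0085 alone, so it did not follow the order of IRF9. The part of shared bases in the IRF9 values was not tested.

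IRF3, the constitutive sensor-driven factor, was the most abundant of the 8 genes per length in untreated cells and the only one whose IFN-γ value lay below zero. It stood at 62.9 and 74.8 CPM when untreated, 41.1 and 39.2 under IFN-γ, 54.5 and 53.5 under the combined treatment, and 57.4 and 55.7 under AX-0085 alone. The IFN-γ pair was the lowest and the untreated pair the highest, with no overlap between groups. The log2 change with IFN-γ was -0.78 (SE 0.09, adjusted p 2.628e-06), and with AX-0085 added to IFN-γ it was 0.43 (SE 0.09, adjusted p 0.000628), both under the 2-fold limit. Both treatments and AX-0085 alone differed by -0.07 (95% confidence interval -0.24 to 0.11).

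IRF3, at chr19:49659569-49665875 on the minus strand, shares 14.2% of its canonical exon bases with another gene, through 1 exon. That gene is BCL2L12, on the opposite strand. BCL2L12 had log2 changes of -0.75 with IFN-γ, -0.73 with AX-0085 and -0.01 with AX-0085 on top of IFN-γ. In the last comparison IRF3 had a value above zero and BCL2L12 one near it. The libraries were made with a stranded kit, but the strand setting of the counting is not given in the sources used here, and the part of shared reads in the IRF3 values was not tested.

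IRF2, the competitor of IRF1, stood at 21.7 and 21.3 CPM when untreated, 29.6 and 31.3 under IFN-γ, 22.1 and 19.0 under the combined treatment, and 21.2 and 24.5 under AX-0085 alone. The IFN-γ pair was above all others and the other 3 groups overlapped. Its log2 change was 0.50 with IFN-γ (SE 0.09, adjusted p 0.0003322) and -0.56 once AX-0085 followed (SE 0.09, adjusted p 0.000152), each under the 2-fold limit. Of the 3 IRF2 binding proteins, corepressors first found with IRF2, IRF2BPL rose with IFN-γ (log2 change 1.64, adjusted p 6.166e-09) and fell once AX-0085 followed (-1.49). IRF2BP1 and IRF2BP2 had log2 changes of -0.05 and 0.63 with IFN-γ.

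IRF5 showed the narrowest range. It stood at 12.4 and 14.2 CPM when untreated, 16.5 and 16.0 under IFN-γ, 16.2 and 16.0 under the combined treatment, and 15.5 and 14.6 under AX-0085 alone. The untreated pair was lowest and the 2 groups with IFN-γ overlapped. The log2 change with IFN-γ was 0.29 (SE 0.10, adjusted p 0.01481), and between IFN-γ with and without AX-0085 it was -0.01 (95% confidence interval -0.21 to 0.19, adjusted p 0.9181). IRF2, at chr4:184385702-184474558 (-), IRF5, at chr7:128937457-128950038 (+), IRF7, at chr11:612553-615983 (-), and BATF3, at chr1:212686417-212699840 (-), share no exon bases with other genes.

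With AX-0085 on top of IFN-γ, the 5 genes that had risen were all called lower, and none of the 8 was called higher. Without IRF9, whose fall the expression filter favoured, 4 of the 7 were called lower and 0 higher. Of all genes tested, 16.5% were called higher and 8.28% lower in this comparison. The median log2 change was -1.65 over the 8 genes, -1.14 over the 7 without IRF9 and 0.03 over all genes. This comparison shares its IFN-γ libraries with that of IFN-γ against untreated cells, so its values stand beside those of the IFN-γ change and do not repeat them. Against untreated cells, IRF8 and BATF2 were called higher with both treatments and none lower, where 7.51% and 7.23% of all genes were called.

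The comparison of both treatments with AX-0085 alone uses libraries that the comparison of IFN-γ with untreated cells does not. It gives the IFN-γ change a second time, with AX-0085 added after 24 h of IFN-γ. RNA made before the inhibitor was added and RNA made after it cannot be told apart here. IRF8, BATF2 and BATF3 were higher, none of the 8 was lower, and 1.79% and 1.73% of all genes tested were called in these directions. The difference between the IFN-γ change with and without AX-0085 was tested as an interaction. It was negative and called for BATF2 (-5.17, SE 0.32, adjusted p 4.959e-08), IRF7 (-2.35, SE 0.22, adjusted p 2.104e-06), IRF9 (-3.21, SE 1.06, adjusted p 0.023) and IRF8 (-1.83, SE 0.62, adjusted p 0.02509), where 12.1% of all genes were called higher and 6.46% lower.

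The BATF3 interaction was -0.47 (SE 0.17, adjusted p 0.03869) and stayed under the 2-fold limit. The values of IRF2 and IRF3 were -0.65 (adjusted p 0.001243) and 0.71 (adjusted p 0.0002641), also under that limit. The interaction of IRF8 was lost without AX-0085 replicate 1 (-1.62, adjusted p 0.1524) or replicate 2 (-2.02, adjusted p 0.06297). That of IRF9 was lost in DESeq2 (-3.39, adjusted p 0.07199) and without any of 4 single libraries (-2.22 to -2.82), namely untreated replicate 2, AX-0085 replicate 1, IFN-γ replicate 2 and replicate 2 of both treatments. IRF9 passed the filter only through the IFN-γ libraries, which favoured a negative interaction. Its interaction was -3.99 without untreated replicate 1, -3.82 without AX-0085 replicate 2 and -4.08 without replicate 1 of both treatments. Those of BATF2 and IRF7 remained called in every alternative run.

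**Figure D2:**
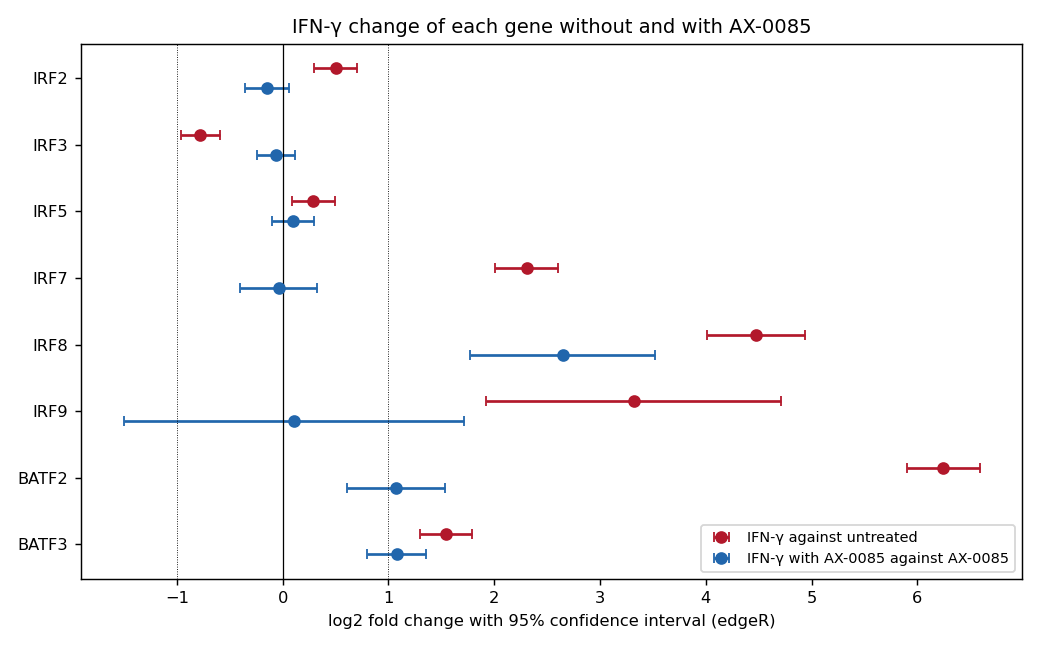
Log2 fold change with IFN-γ (horizontal axis) for each gene, without AX-0085 in red and between the groups given AX-0085 in blue. For the combined treatment, AX-0085 was added after 24 h of IFN-γ. Points are edgeR estimates, bars 95% confidence intervals, and dotted lines mark a 2-fold change. The blue interval covers 0 for IRF7 (-0.41 to 0.33) and lies above 0 for IRF8, BATF2 and BATF3.

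Per kilobase of exon, IRF3 led in untreated cells at 18.1 ± 2.21 CPM per kb (SD, n = 2), followed by BATF3 at 3.36 ± 0.51 and IRF2 at 3.19 ± 0.05, whose libraries overlapped. IRF5, IRF7, BATF2, IRF8 and IRF9 followed at 1.87, 1.12, 0.375, 0.0649 and 0.0108 CPM per kb, each pair of neighbours apart. With IFN-γ, BATF2 moved from sixth place to the top at 28.6 ± 1.59 CPM per kb, above IRF3 at 10.6 ± 0.36 and BATF3 at 9.79 ± 0.78. With both treatments IRF3 led again at 14.2 ± 0.17 CPM per kb, and BATF2 at 1.23 ± 0.31 overlapped IRF7 at 1.07 ± 0.09. With AX-0085 alone, IRF5 at 2.12 overlapped BATF3 at 2.10 CPM per kb, and IRF9 overlapped IRF8. These lengths take all exon bases of a gene, and most canonical exon bases of IRF9 are shared, so its level per length may not compare with the others.

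**Figure D3:**
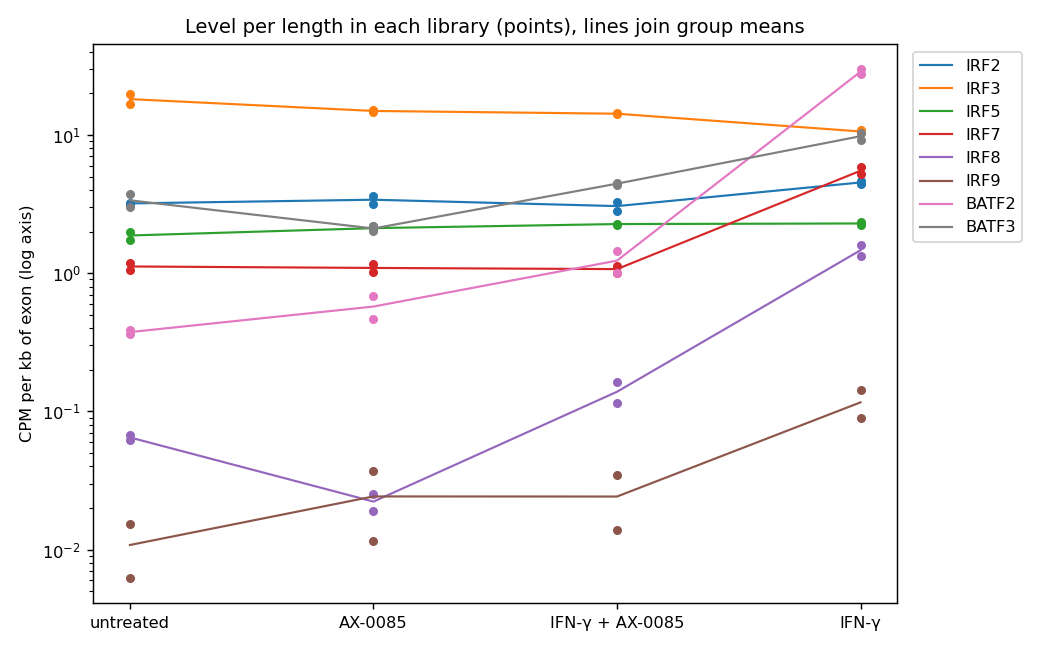
CPM per kb of exon (vertical axis, log scale) of the 8 genes in the 4 groups. Points are single libraries and lines join group means. BATF2 climbs from 0.375 in untreated cells to 28.6 with IFN-γ, while IRF3, IRF2 and IRF5 stay within a narrow band.

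The rest of the pathway was followed through gene lists. STAT2, the partner of IRF9 in ISGF3, rose with IFN-γ by 1.57 on the log2 scale (SE 0.10, adjusted p 1.308e-08). With AX-0085 alone it had a log2 change of 0.95 (adjusted p 4.403e-06), under the 2-fold limit. IFNGR2, a receptor chain for IFN-γ, had the lowest IFN-γ value among the tested receptor, JAK and STAT genes, -0.66 on the log2 scale, also under that limit.

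Of 14 sensors, adaptors and kinases upstream of IRF3, IRF5 and IRF7, 12 were tested. TLR3, IFIH1 and TICAM1 rose with IFN-γ (log2 changes 4.15, 3.59 and 1.14), and STING1 and IKBKE fell (-2.22 and -2.15). Of all genes tested, 10.3% were called higher and 17.2% lower in this comparison. TLR3, a receptor for double-stranded RNA, stood at 0.794 and 0.733 CPM when untreated, 13.3 and 14.1 under IFN-γ, 3.81 and 5.53 under the combined treatment, and 3.19 and 3.69 under AX-0085 alone. It was the gene of this list that rose with AX-0085 alone (log2 change 2.16, adjusted p 1.068e-05), where 6.41% of all genes tested were called higher. STING1, the adaptor for cytosolic DNA sensing, had 51 and 32 counts when untreated, 8 and 6 under IFN-γ, 10 and 4 under the combined treatment, and 33 and 41 under AX-0085 alone. The 2 groups with IFN-γ overlapped and lay below the other 2, and adding AX-0085 to IFN-γ gave a log2 change of -0.29 (95% confidence interval -1.45 to 0.86).

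Among 20 target genes of ISGF3, the complex that contains IRF9, 14 were tested and the other 6 had 0 counts in every library, which was taken as not measured. With IFN-γ 12 rose and none fell, where 10.3% and 17.2% of all genes tested were called higher and lower. Once AX-0085 followed, 12 fell, where 8.28% of all genes were called lower. Among these 12, RSAD2 and EPSTI1 passed the expression filter only through the IFN-γ libraries, so the filter favoured their rise and their fall. RSAD2, an antiviral enzyme, had the highest fitted change of the list, with 0 counts in both untreated libraries, 19 and 33 under IFN-γ, 3 and 4 under the combined treatment, and 1 and 1 under AX-0085 alone. Set against a floor of 3 counts per library, it was at least 10.5-fold higher with IFN-γ. With RSAD2 at that bound, the median log2 change of the list was 4.61, and 5.01 as fitted. OAS1 had the lowest value, -0.66, under the 2-fold limit. Measured from AX-0085 alone, 7 of the 14 were still called higher with both treatments, where 1.79% of all genes tested were called higher. Of 7 interferon and chemokine genes that IRF3 and IRF7 transcribe, 5 had 0 counts in every library, which was taken as not measured. The others were too low to test, so none of the 7 is shown to be silent.

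The bZIP list holds JUN family genes, whose proteins pair with BATF proteins, FOS family genes, whose proteins compete for the same place, and ATF3 and BATF. Of its 9 genes, 6 were tested, FOSB and JUNB had 0 counts in every library and were taken as not measured, and BATF had 1 count in all. ATF3, FOSL1, JUN and FOSL2 rose with IFN-γ (log2 changes 4.69, 3.32, 2.52 and 1.32) and fell once AX-0085 followed (-2.96, -5.47, -3.08 and -1.54). ATF3, a stress-induced factor, stood at 5.63 and 5.87 CPM when untreated, 151 and 146 under IFN-γ, 19.5 and 18.6 under the combined treatment, and 9.40 and 7.83 under AX-0085 alone. Like BATF2, ATF3 stayed above untreated cells with both treatments (log2 change 1.73, adjusted p 1.522e-08).

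FOS, the classic immediate early gene, differed from these 4 in direction. It stood at 7.84 and 7.13 CPM when untreated, 2.85 and 2.13 under IFN-γ, 17.8 and 11.01 under the combined treatment, and 22.7 and 12.2 under AX-0085 alone. The IFN-γ pair was lowest, and the 2 groups with AX-0085 overlapped each other above untreated cells. FOS fell with IFN-γ (log2 change -1.61, adjusted p 0.001282) and rose again once AX-0085 followed (2.58, adjusted p 1.397e-05). JUND, the sixth gene tested, had a log2 change of 0.02 with IFN-γ and rose once AX-0085 followed (1.03, adjusted p 1.125e-05). FOSL1, chosen, like JUND, for mention after its values were seen, stood at 41.7 and 42.7 CPM when untreated, 439 and 402 under IFN-γ, 9.02 and 10.1 under the combined treatment, and 5.02 and 4.55 under AX-0085 alone. Both groups with AX-0085 lay below untreated cells, where BATF2 did not.

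**Figure D4:**
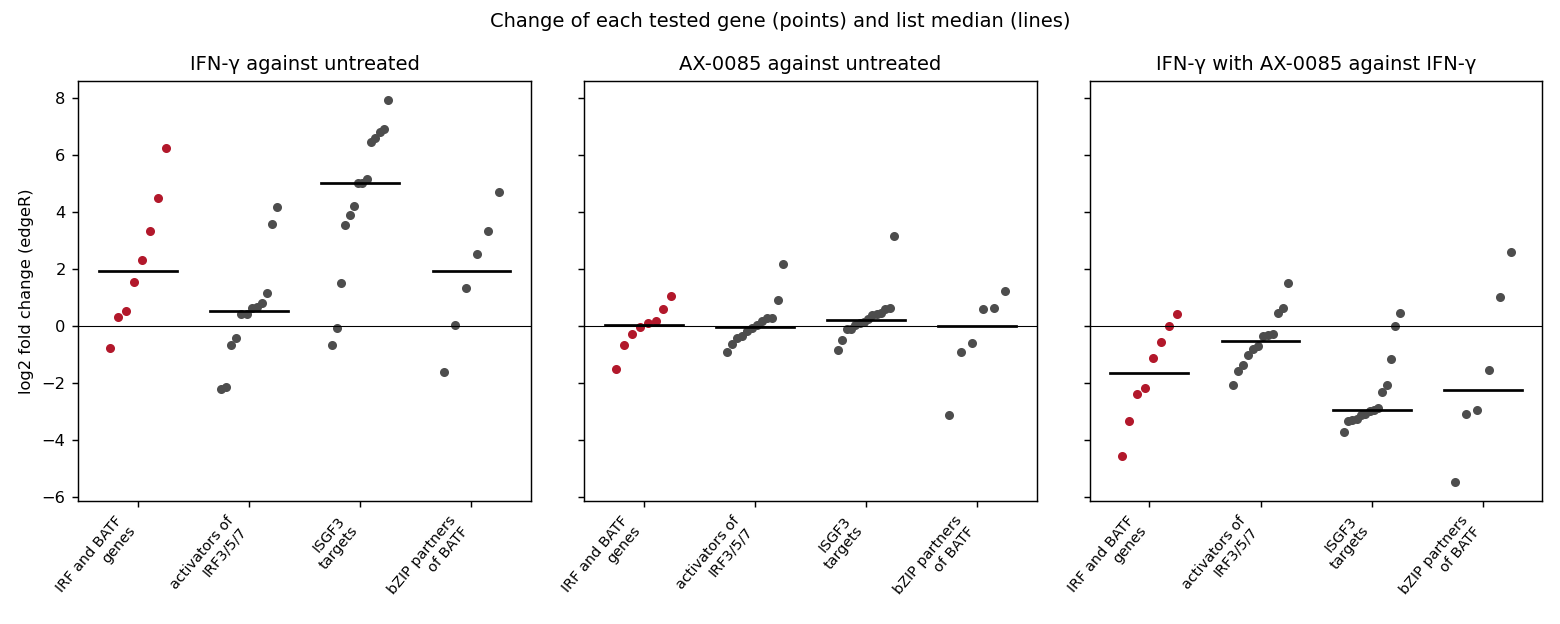
Log2 fold change (vertical axis, edgeR) of each tested gene, with the list median as a line, for the IRF and BATF genes (red) and 3 lists (grey) in 3 comparisons. With IFN-γ the medians of the IRF and BATF genes and of the ISGF3 targets are 1.93 and 5.01, and with AX-0085 on top of IFN-γ they are -1.65 and -2.96.

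Outside the 8 genes, counts of the family were low or absent for the 2 genes given here. IRF4 had 4 and 1 counts when untreated, 20 and 12 under IFN-γ, 1 and 2 under the combined treatment, and 0 and 0 under AX-0085 alone. Its ratio of IFN-γ to untreated cells was 8.002 (95% counting interval 3.10 to 26.3, adjusted p 0.001602 in edgeR's quasi-likelihood test), and that of both treatments to IFN-γ was 0.0767 (0.0150 to 0.245, adjusted p 0.0008677). IRF4 passed the expression filter only through its IFN-γ libraries, so the filter favoured a rise with IFN-γ and a fall from it. IRF1 had 0 counts in all 8 libraries and was taken as not measured. Since such zeros include genes that A549 cells usually express, such as JUNB, a gene at 0 in every library is not shown to be silent.

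Likeness across libraries was measured as Pearson's r of log2 CPM over the 8 libraries, among 10125 genes averaging 2 or more on the log2 CPM scale. The gene most like IRF7 was LIPH (r = 0.996), and those most like BATF3 were CDK5RAP1 (r = 0.998) and AVPI1 (r = 0.997). POLR3D and MOSPD1 were most like BATF2, and NPC1 and RRP12 most like IRF8, all 4 at r between 0.996 and 0.997. For IRF9 the values were lower, with ZNF776 at 0.957 and ENSG00000285756 at 0.955. The 8 libraries form 4 pairs that share a treatment, and between 458 and 658 genes reached r over 0.95 with each of the first 4, so many other genes were nearly as alike.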

How the data were processed

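The authors trimmed reads with Trim Galore 0.6.7, mapped them to GRCh38 with STAR 2.7.9a and counted them per gene with featureCounts, per the labels' processing notes, and deposited raw counts, whole numbers without normalization. bcl2fastq 2.20 is also named there. The annotation release and the handling of shared bases, strand and multiply mapped reads are not given in the sources used here. Per-sample columns not used numbered 0.

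Low genes were removed by filterByExpr, TMM factors set the scale, and the test was edgeR 4.0.16 (glmQLFit and glmQLFTest, R 4.3.3) in 1 model of 4 groups and 8 libraries, with 6 contrasts. Confidence intervals were derived from the quasi-likelihood F statistic, intervals of count ratios are exact binomial, and log2 CPM used a prior count of 0.125. Positions and exon overlaps come from GENCODE 44, in which 60463 of 60664 identifiers were found. Promoter windows were matched by symbol and found for IRF5, IRF8, IRF9 and BATF2.

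The genes named were the 8 members, the highest and lowest IFN-γ change of each list, STAT2, all genes of lists of up to 3, and the 2 most similar genes of each member called. Part of what this rule selects is left out of the text. Genes making up a count of 5 or fewer were added, as were the genes that overlap members. Members and lists were chosen with earlier results of these data known. With 2 libraries per group an exact permutation test cannot reach the threshold, so no gene was tested outside the model. The libraries of a group differed by more than counting noise (chi-square per degree of freedom 8.55 to 27.7). Alternatives were DESeq2 1.42.0, RLE size factors, library size alone, other count filters, the groups compared alone, the adjusted p alone, exon bases outside other genes (for levels per length), the replicate number as a block, and each library left out.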

Additional observations from a re-analysis of the deposited data

Results flagged for a closer look

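The IFN-γ change of 4 genes differed between cells with and without AX-0085 by a test of the difference itself, the interaction in edgeR's quasi-likelihood model. On the log2 scale the change with AX-0085 minus the change without it was -5.17 for BATF2, -2.35 for IRF7, -3.21 for IRF9 and -1.83 for IRF8. The IFN-γ change went from 6.24 to 1.07 for BATF2, from 2.31 to -0.04 for IRF7, from 3.32 to 0.11 for IRF9 and from 4.47 to 2.65 for IRF8. The call for IRF8 was lost without either AX-0085 library, and that for IRF9 in DESeq2 and without any of 4 single libraries. IRF9 rests on at most 23 counts in any library and entered the test only through the IFN-γ libraries, which favoured a negative value. No test for a library apart from its group was made, since groups hold 2 libraries.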

How the results depend on the processing

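Over 48 values, 6 for each gene, the call and direction were the same in 753 of the values recomputed, 13 lost the call, 13 gained it and 14 changed sign. All 13 gains came with the adjusted p alone. With that setting, 7 of the 8 were higher and 1 lower with IFN-γ, where 4838 and 5421 of 15066 genes were called. AX-0085 alone gave 3 lower, against 4010 of all genes. AX-0085 on top of IFN-γ gave 1 higher, against 5079 of all genes, and IRF2 joined the genes called lower, against 4940 of all genes. Both treatments against untreated cells gave 4 higher and 1 lower, against 4234 and 4339 of all genes. The interaction was positive and called for 1, against 4025 of all genes, and IRF2 and BATF3 joined the negative ones, against 3552 of all genes. With at least 10 counts in every library, which drops IRF8 and IRF9, 3 rose with IFN-γ, against 1125 of all genes. In that setting 0 fell with AX-0085, against 569, and 3 fell when it was added, against 835. With both treatments 1 was higher than in untreated cells, against 684 of all genes, and 2 interactions were negative, against 769.

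Leaving out 1 library gave IRF8 log2 changes of -1.73 to -1.34 with AX-0085 alone and 0.85 to 1.32 with both treatments against untreated cells. The interaction was then -2.16 to -1.62 for IRF8 and -4.08 to -2.22 for IRF9. The calls lost in these runs are given above with each gene. The sign changes concern values near zero. When 1 library was left out, AX-0085 alone gave -0.016 to 0.187 for IRF2 and -0.122 to 0.059 for IRF7. Both treatments against untreated cells gave -0.136 to 0.041 for IRF2 and -0.146 to 0.069 for IRF7, and against AX-0085 alone -0.123 to 0.087 for IRF7 and -0.727 to 1.104 for IRF9. IRF5, with AX-0085 on top of IFN-γ, gave -0.045 to 0.003 with 1 library left out, 0.11 with library size alone, 0.043 with the filter of 10 counts and 0.009 with the groups compared alone. Library size alone moved the median log2 change of all genes with IFN-γ from -0.06 to -0.17, and no called gene changed direction.

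Replicate numbers did not pair the libraries (correlations of deviations -0.11 to 0.09). With the replicate block 5 genes rose with IFN-γ and 4 interactions were negative, as without it, and a block with the untreated numbers crossed, chosen after seeing the data, gave the same counts. Low counts limit IRF9, IRF4 and, outside the IFN-γ libraries, IRF8.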
